A study of Mus musculus with 24 samples.

Results

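The genes that flank Thrb on mouse chromosome 14 were followed through livers that carried 4 versions of that gene. Thrb encodes the thyroid hormone receptor TRβ, and the question was whether altering it went with altered expression of the genes beside it. The 10 genes were Fhit, Ptprg, Psmd6, Oxsm, Ngly1, Top2b and Rarb on one side of Thrb and Nkiras1, Ube2e1 and Ube2e2 on the other, out of 18194 genes with a probe set of their own. They were taken by position, as every probe set whose array annotation names one of these symbols alone, which gave 21 probe sets. The rule is positional, but the set was chosen by a reading of log2 differences between genotypes on these same arrays, so all values that compare genotypes are given below as a description, without p-values, and support nothing beyond themselves.

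Liver RNA of 24 hypothyroid male mice was hybridised to 24 microarrays, in 8 groups of 3 that cross 4 genotypes with either T3, the active form of thyroid hormone, or PBS alone, injected once. Wild type (WT), the TRβ knockout (KO) and the TRβ mutant with E125G and G126S (GS) were on a C57BL/6J background, 8 to 9 weeks old, and drank 0.02% methimazole, 0.5% perchlorate and 0.3% saccharin for 3 weeks with low-iodine food. T3 was given to them at 20 µg per 100 g. The TRβ mutant with Y147F came in a later submission, on C57BL/6JCrl. These mice were made hypothyroid from 10 to 11 weeks of age with an iodine-deficient diet, 0.05% methimazole and 1% potassium perchlorate. They received T3 at 200 ng per g, which is the same dose in other units. For Y147F the genotype, the strain source, the age, the hypothyroid regimen and the submission therefore cannot be told apart. The labels state 6 h between injection and tissue collection. Every animal was thus hypothyroid before treatment. Sample titles end in a number, and what it stands for is not known here. It was above 100000 on all KO arrays and all Y147F arrays with PBS. Among WT arrays only PBS replicate 1 was above it, among GS arrays only replicate 1 of either treatment, and among Y147F arrays with T3 only replicate 3. KO thus differs from WT and from GS in this number as well as in genotype, and the split served as a covariate in an alternative fit. The labels do not say which part of Thrb the knockout lacks or how the strains were bred onto their background.

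TRβ is a nuclear receptor that binds DNA at thyroid response elements, built from copies of a short core motif, and in liver it drives metabolic genes when T3 is bound. Its neighbours have a range of jobs. Fhit hydrolyses dinucleoside polyphosphates and spans a fragile site, Ptprg is a receptor-type tyrosine phosphatase, Psmd6 is a subunit of the proteasome's regulatory particle, Oxsm is the condensing enzyme of mitochondrial fatty acid synthesis, and Ngly1 strips N-glycans from misfolded glycoproteins. Top2b is a DNA topoisomerase, Rarb is a retinoic acid receptor, Nkiras1 is a Ras-like inhibitor of NF-κB signalling, and Ube2e1 and Ube2e2 are ubiquitin-conjugating enzymes.

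In the order of measured genes given by RefSeq (GRCm38.p6), Rarb lay 1 place before Thrb, Top2b 2, Ngly1 3, Oxsm 4, Psmd6 8, Ptprg 15 and Fhit 16 places before it. Nkiras1 lay 2, Ube2e1 3 and Ube2e2 4 places after it, and Nr1d2 stood between Thrb and Nkiras1. The RefSeq spans of Nkiras1 and Ube2e1 overlap, as do those of Oxsm and Ngly1, so a probe set in a shared stretch could read either gene if its strand were mistaken; probe positions were not used here.

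Promoter sequences were in RefSeq's table (GRCm38.p6) for 9 of the 10 genes, as 14 windows of 250 bases before to 50 bases after a transcript start. Shown are 1 of the 2 Ptprg windows and 2 of the 3 Oxsm windows, because probe sets of these genes had the largest differences between KO and WT within the set, and the Ngly1 window, because Ngly1 overlaps Oxsm and had no difference past the threshold. Capitals mark that core motif, AGGTCA, read on either strand (as TGACCT on the opposite one). The Ptprg window is chr14:11553303-11553602 on the plus strand. The first Oxsm window is chr14:16249759-16250058 and the second chr14:16249127-16249426, both on the minus strand, and the Ngly1 window is chr14:16249064-16249363 on the plus strand. The second Oxsm window and the Ngly1 window share most of their bases on opposite strands, with the starts pointing away from each other, while transcripts from the first Oxsm start run towards Ngly1.
Ptprg: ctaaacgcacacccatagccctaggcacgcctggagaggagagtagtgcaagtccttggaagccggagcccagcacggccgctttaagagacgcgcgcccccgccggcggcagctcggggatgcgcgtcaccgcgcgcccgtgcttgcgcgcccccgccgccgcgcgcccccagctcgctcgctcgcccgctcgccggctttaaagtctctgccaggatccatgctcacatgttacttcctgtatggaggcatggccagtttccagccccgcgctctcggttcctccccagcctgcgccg
Oxsm, first window: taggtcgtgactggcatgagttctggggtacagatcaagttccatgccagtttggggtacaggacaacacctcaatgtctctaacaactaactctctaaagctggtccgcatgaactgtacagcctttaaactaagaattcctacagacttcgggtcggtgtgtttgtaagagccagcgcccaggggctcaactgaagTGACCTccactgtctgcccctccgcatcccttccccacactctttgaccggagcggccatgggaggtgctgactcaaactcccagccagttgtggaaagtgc
Oxsm, second window: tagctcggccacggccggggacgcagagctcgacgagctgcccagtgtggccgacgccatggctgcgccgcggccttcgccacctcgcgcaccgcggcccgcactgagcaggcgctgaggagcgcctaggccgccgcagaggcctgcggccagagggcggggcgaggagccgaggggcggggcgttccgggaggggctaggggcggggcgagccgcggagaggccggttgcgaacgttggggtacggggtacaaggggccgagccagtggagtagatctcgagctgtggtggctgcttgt
Ngly1: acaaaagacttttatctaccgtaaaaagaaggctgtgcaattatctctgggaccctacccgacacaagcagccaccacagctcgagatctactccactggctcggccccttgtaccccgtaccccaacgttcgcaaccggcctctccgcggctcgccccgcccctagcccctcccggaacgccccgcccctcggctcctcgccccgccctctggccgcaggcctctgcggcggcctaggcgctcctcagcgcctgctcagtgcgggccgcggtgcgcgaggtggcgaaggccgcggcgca
The first Oxsm window held 1 copy and the other 3 windows shown none. The third Oxsm window, not shown, held 1 copy and the other Ptprg window none. Of the 14 windows, 4 held AGGTCA on either strand, and so did 16.3% of all 32851 promoters in the table. The direct repeat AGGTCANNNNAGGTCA was in none of the 14 and in 5 of all promoters. A match describes letters only.

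Array medians lay between 5.88 and 6.00 on the log2 scale, and an array correlated with the others of its group at a mean r of 0.994 to 0.997, lowest in Y147F PBS replicate 3. The number of arrays limits the precision. In these bulk samples fewer cells of a type and less RNA per cell cannot be told apart. Thrb itself was read by 1 probe set, whose group means ran from 6.54 to 6.99, in KO 6.99 with PBS and 6.96 with T3 against 6.80 and 6.66 in WT. The probe set therefore did not show a loss of the receptor's transcript in KO, and which stretch of Thrb it reads was not looked up. All values below are deposited log2 intensities, differences are on the log2 scale ± SE from limma with n = 3 arrays per group, and a value was called past the threshold at a Benjamini-Hochberg adjusted p under 0.05 over all genes or all probe sets tested.

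With 1 probe set per gene, the brightest, all 10 genes could be tested among 14161. In KO against WT with PBS, 5 of the 10 were past the threshold, 2 higher and 3 lower, where 6.87% of all genes were. With T3 there were 3 of 10, 1 higher and 2 lower, against 6.93%. The median absolute difference of the 10 genes was 0.29 with PBS and 0.20 with T3, and over all genes it was 0.10 in both. In GS against WT 1 gene was past it with PBS and none with T3, against 2.95% and 5.59% of all genes. In Y147F against WT it was 0 of 10 under both treatments, against 0.0847% with PBS and 0.00706% with T3, and the median absolute difference of the 10 genes was 0.03 and 0.05. In GS against KO, which uses the KO and GS arrays again, 1 gene was past it with PBS and 2 with T3, where 0.0847% and 0.106% of all genes were. The KO, GS and Y147F comparisons against WT share the WT arrays. As the choice of genes used these contrasts, nothing is read from the shares.

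**Figure D1:**
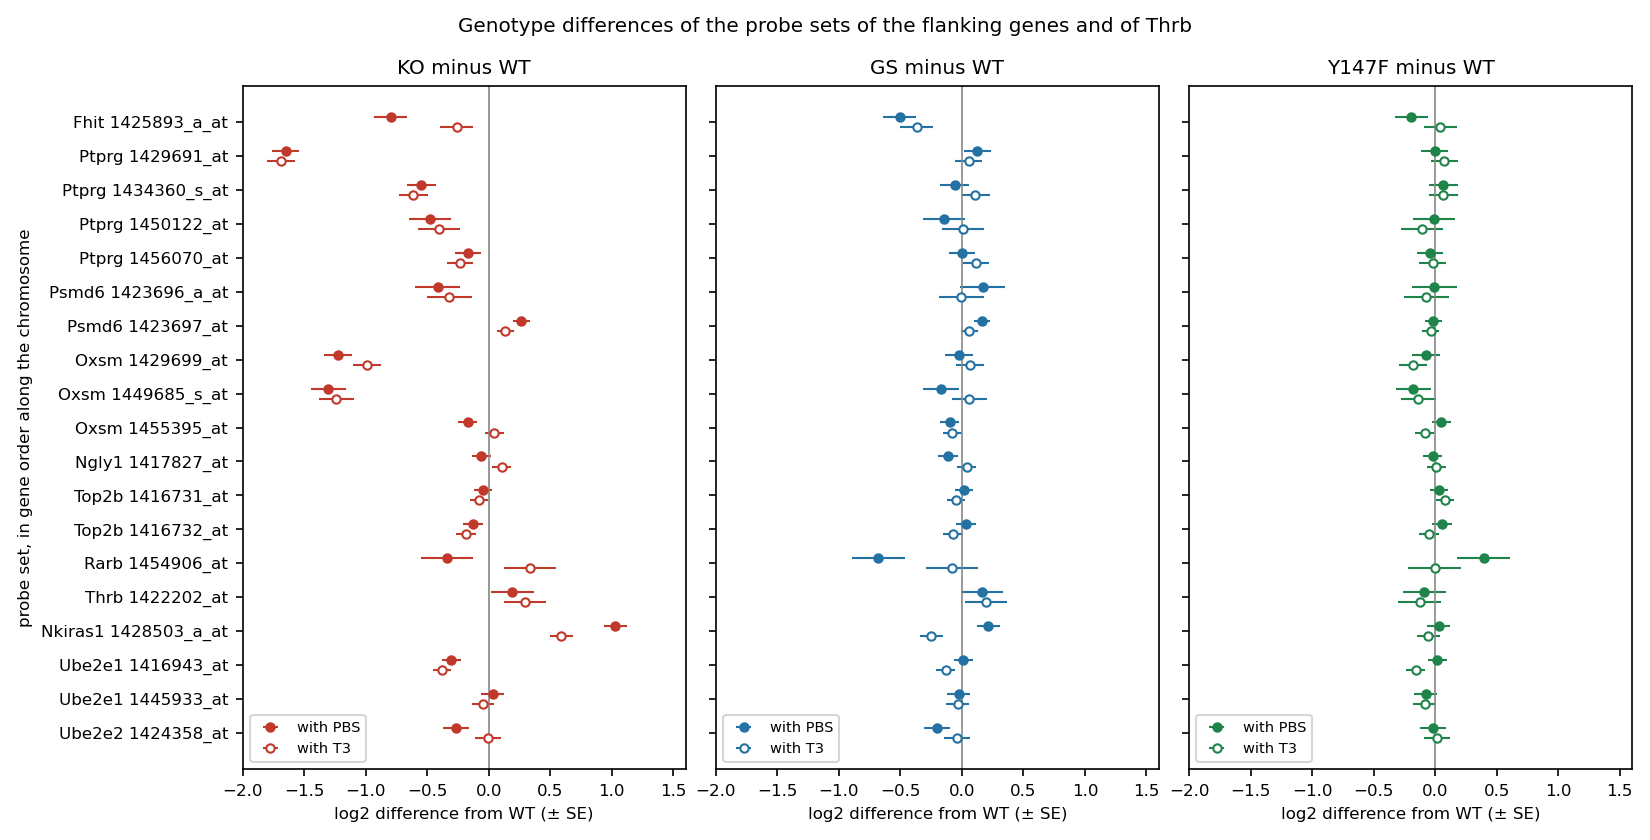
Log2 difference from WT (x axis, ± SE) of the 18 probe sets of the flanking genes that passed the filter, and of Thrb, in gene order along the chromosome (y axis), for KO, GS and Y147F, with PBS (filled points) and T3 (open points), 3 arrays per group. In KO 1 Ptprg and 2 Oxsm probe sets lie near -1 or lower and Nkiras1 lies above 0.5, and in Y147F all points lie within 0.5 of 0.

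Of the 21 probe sets, 18 passed the filter on low values. The other 3, Oxsm 1419973_at and 1449684_at and Top2b 1448458_at, were below the 40th percentile on all arrays and were not tested. At the level of probe sets, KO against WT with PBS put 8 of 18 past the threshold (2 higher, 6 lower), beside 5.66% of all 24577, and with T3 6 of 18 (1 higher, 5 lower), beside 6.02%. GS against WT put none of 18 past it under either treatment, beside 2.14% with PBS and 4.58% with T3. Y147F against WT also put none past it, beside 0.0122% with PBS and 0% with T3. GS against KO put 4 of 18 past it with PBS and 5 of 18 with T3, beside 0.0936% and 0.0977%.

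Ptprg, the receptor phosphatase, showed the widest difference. Its probe set 1429691_at read 7.98, 8.07 and 8.25 on the WT arrays with PBS and 6.49, 6.37 and 6.50 on the KO arrays. On the GS arrays it read 8.22, 8.21 and 8.25, and on the Y147F arrays 8.03, 8.03 and 8.22. With T3 the values were 8.05, 7.94 and 8.07 in WT, 6.36, 6.51 and 6.12 in KO, 8.21, 7.77 and 8.24 in GS and 8.05, 8.04 and 8.18 in Y147F. Every KO array was low, none of them overlapped any array of another genotype, and the other 3 genotypes overlapped each other. KO was 3.14-fold lower than WT with PBS (-1.65 ± 0.11) and 3.22-fold lower with T3 (-1.69 ± 0.11). GS was above KO by 1.77 ± 0.11 and 1.74 ± 0.11, which ranked the probe set 9 and 7 by size among all 24577 in that comparison.

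The other 3 Ptprg probe sets differed less. The brightest, 1434360_s_at, had a mean of 8.75 in WT and 8.20 in KO with PBS (-0.55 ± 0.12), and 8.59 and 7.97 with T3 (-0.61 ± 0.12), both past the threshold. In KO 1450122_at was lower by -0.48 ± 0.17 with PBS and -0.40 ± 0.17 with T3, and 1456070_at by -0.17 ± 0.11 and -0.23 ± 0.11, none of them past it. All 4 probe sets of the gene thus had a lower mean in KO than in WT under both treatments, over a range from -1.69 to -0.17.

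Oxsm, the mitochondrial condensing enzyme, was read by 3 probe sets above the filter that did not go together. The first, 1429699_at, read 7.56, 7.61 and 7.76 in WT with PBS, 6.24, 6.37 and 6.66 in KO, 7.83, 7.53 and 7.52 in GS and 7.60, 7.76 and 7.36 in Y147F. With T3 it read 7.64, 7.69 and 7.68 in WT, 6.50, 6.78 and 6.77 in KO, 7.77, 7.61 and 7.82 in GS and 7.42, 7.53 and 7.51 in Y147F. All 6 KO arrays lay below all 18 others. KO was lower than WT by -1.22 ± 0.11 with PBS (2.33-fold) and -0.99 ± 0.11 with T3 (1.98-fold).

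The second Oxsm probe set, 1449685_s_at, read 6.88, 6.47 and 6.80 on the KO arrays with PBS and 6.97, 6.59 and 6.56 with T3. The lowest array outside KO was Y147F PBS replicate 3, at 7.45, so here too KO stood below every other array. KO was lower than WT by -1.30 ± 0.14 with PBS (2.47-fold) and -1.24 ± 0.14 with T3 (2.36-fold). Without Y147F PBS replicate 3 the Y147F minus WT difference with PBS was 0.02 instead of -0.18, and neither value was past the threshold.

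The third, 1455395_at, was the brightest by a wide margin and showed another picture. Its group means lay between 10.43 and 10.66, KO was -0.17 ± 0.08 from WT with PBS and 0.05 ± 0.08 with T3, and neither was past the threshold. With PBS its 3 KO arrays (10.46, 10.44 and 10.38) still lay below the 3 WT arrays (10.50, 10.60 and 10.70), and with T3 the arrays overlapped. A summary of Oxsm by its brightest probe set alone therefore showed a much smaller difference with PBS and none of the lowering with T3 seen in the other 2. Levels of different probe sets cannot be set against each other, so which of them tracks the bulk of the transcript is not known from these values.

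**Figure D2:**
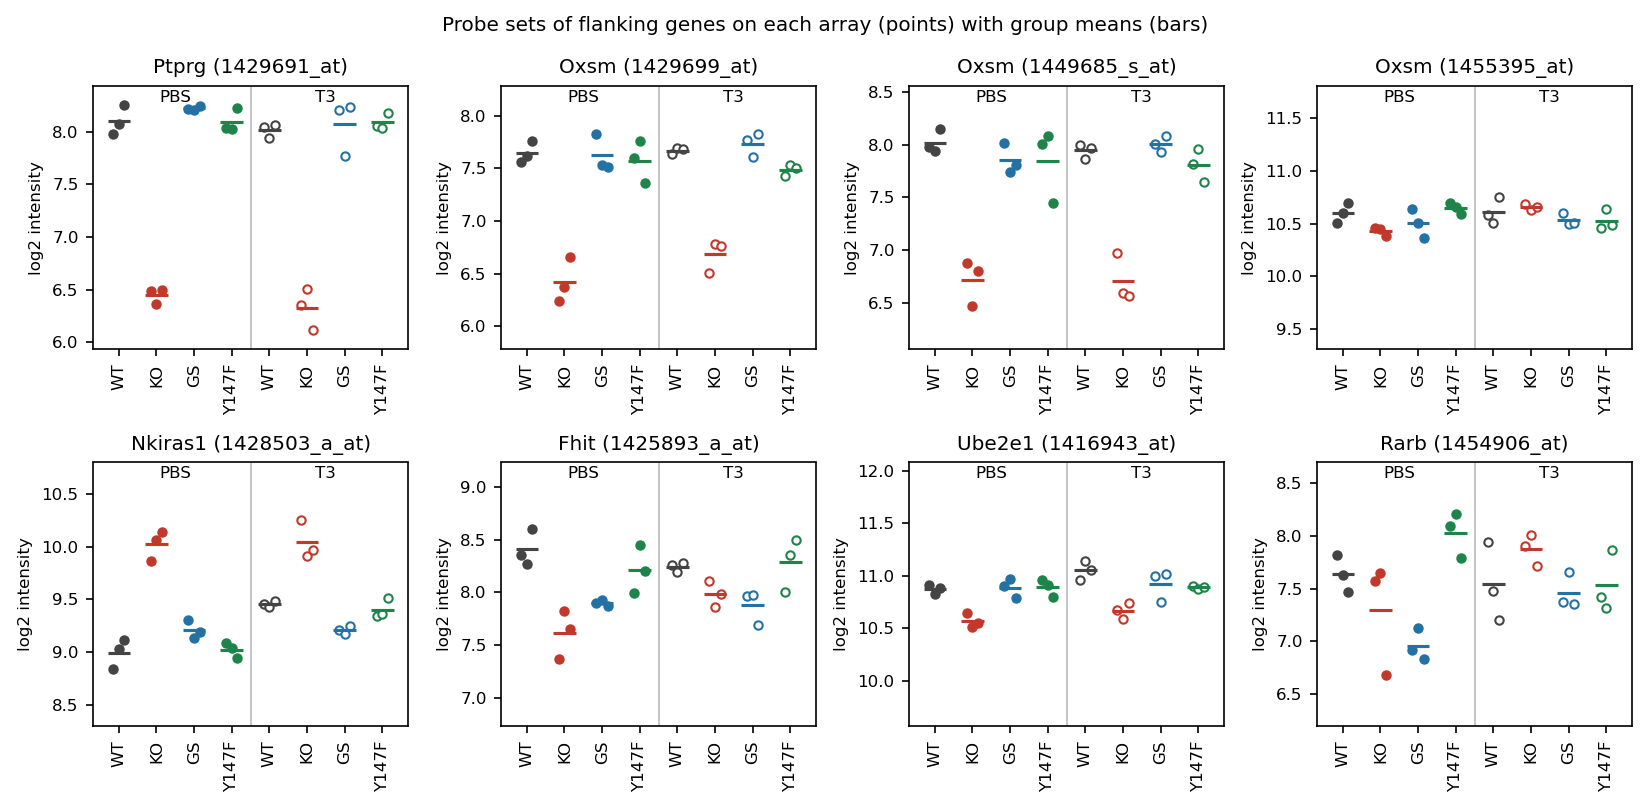
Log2 intensity (y axis) of 8 probe sets on each of the 24 arrays (points) with the group mean (horizontal bar), by genotype (x axis) with PBS (filled, left side of each panel) and T3 (open, right side). Each panel spans 2.5 log2 units, written on its own axis. The KO points of Ptprg 1429691_at and of Oxsm 1429699_at and 1449685_s_at lie below all others and those of Nkiras1 above all others, and Oxsm 1455395_at shows no such gap.

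Nkiras1, the inhibitor of NF-κB signalling, was higher in KO. It read 8.84, 9.03 and 9.11 in WT with PBS and 9.86, 10.06 and 10.14 in KO, against 9.31, 9.13 and 9.19 in GS and 9.09, 9.04 and 8.94 in Y147F. With T3 it read 9.45, 9.43 and 9.49 in WT, 10.26, 9.91 and 9.97 in KO, 9.21, 9.17 and 9.24 in GS and 9.34, 9.36 and 9.51 in Y147F. Every KO array was above every array of the other genotypes. KO exceeded WT by 1.03 ± 0.09 with PBS (2.04-fold) and by 0.59 ± 0.09 with T3, and GS lay below KO by -0.81 ± 0.09 and -0.84 ± 0.09.

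Fhit, at the far end of the set, read 8.36, 8.27 and 8.60 in WT with PBS and 7.37, 7.82 and 7.65 in KO. In GS it read 7.90, 7.93 and 7.87, and in Y147F 7.99, 8.45 and 8.20. All KO and all GS arrays lay below all WT arrays, and the Y147F arrays overlapped WT. KO was lower by -0.80 ± 0.13 and GS by -0.51 ± 0.13, which was the 1 call in GS against WT. With T3 the KO difference was -0.26 ± 0.13 and that of GS -0.37 ± 0.13, neither past the threshold although the arrays did not overlap with WT. The GS call with PBS rested on all 6 arrays compared, as leaving out any 1 of them left no call (differences from -0.58 to -0.41 over the other settings and leave-outs).

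Ube2e1, the ubiquitin-conjugating enzyme that overlaps Nkiras1, was lower in KO in its brighter probe set 1416943_at. It read 10.92, 10.83 and 10.89 in WT with PBS and 10.65, 10.52 and 10.55 in KO, a difference of -0.31 ± 0.08, and with T3 the difference was -0.38 ± 0.08. The KO arrays did not overlap WT in either case. With PBS the call was lost without KO replicate 2 (-0.28), KO replicate 3 (-0.30) or WT replicate 1 (-0.29). The dimmer 1445933_at differed by 0.03 ± 0.09 and -0.05 ± 0.09. Its relative Ube2e2 had means of 10.43 in WT and 10.17 in KO with PBS and 10.21 and 10.20 with T3. No difference of Ube2e2 was past the threshold, although with PBS the KO (-0.27 ± 0.10) and GS (-0.20 ± 0.10) arrays did not overlap WT.

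Psmd6, the proteasome subunit, had 2 bright probe sets that pointed opposite ways. In KO with PBS 1423697_at was above WT by 0.27 ± 0.07, past the threshold, and 1423696_a_at below it by -0.42 ± 0.18, not past it. The 3 KO arrays of the latter read 10.23, 10.65 and 11.29, a wider spread than the 10.93, 11.29 and 11.20 of WT. With the mean of both probe sets the KO difference was -0.075, so no direction is given for this gene. The call was also lost without KO replicate 3 or WT replicate 2 (0.22 in both).

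Ngly1, Top2b and Rarb, the 3 genes nearest Thrb on their side, had no genotype difference past the threshold. Ngly1 had group means over a range of 0.16 and Top2b over 0.15, the narrowest of the 10. Rarb had the widest, 1.07, and its arrays scattered: with PBS it read 7.82, 7.63 and 7.47 in WT, 7.57, 7.65 and 6.68 in KO, 6.92, 7.12 and 6.84 in GS and 8.09, 8.21 and 7.79 in Y147F. The GS arrays lay below all WT arrays (-0.68 ± 0.21), while KO (-0.34 ± 0.21) and Y147F (0.39 ± 0.21) overlapped WT. With T3 the Rarb difference was 0.34 ± 0.21 in KO, -0.08 ± 0.21 in GS and -0.01 ± 0.21 in Y147F.

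Places from Thrb are counted in measured genes, not in bases, and whether the size of the difference followed them was not tested. Among the 10 genes the largest differences in KO against WT, by any probe set, were 15 places (Ptprg), 4 places (Oxsm), 2 places (Nkiras1) and 16 places (Fhit) away. The nearest gene tested on either side, Rarb and Nr1d2, had no call. Up to 40 measured genes on either side of Thrb give the setting; only 31 lie before it on the chromosome, and 50 of these neighbours outside the set were tested. With the brightest probe set per gene, in KO against WT with PBS, 6 of the 17 tested before Thrb and 0 of the 33 tested after it were past the threshold, beside 20 of 412 on the rest of the chromosome and 938 of 13608 on the others. With T3 it was 5 of 17 and 1 of 33, beside 26 of 412 and 940 of 13608. In GS against WT it was 1 of 17 and 0 of 33 with PBS, and 1 of 17 and 1 of 33 with T3. In Y147F against WT it was 0 on both sides under both treatments. In the fit of every probe set, genes within 40 places had 111, among them 18 of the flanking genes and that of Thrb. Of the probe sets of neighbours outside the set, 8 were past the threshold in KO against WT with PBS and 11 with T3. Over all probe sets the shares were 5.66% and 6.02%, and nothing is read from these counts. Among the probe sets of neighbours past it, named after their values were seen, a probe set of Dnase1l3, 26 places before Thrb, was below WT. The difference was -1.18 ± 0.13 with PBS and -1.13 ± 0.13 with T3, larger in size than that of Nkiras1. A probe set of Samd8, 38 places after Thrb, was above WT by 0.85 ± 0.16 and 0.81 ± 0.16, the first slightly larger in size than the difference of Fhit. The brightest probe set of Dnase1l3 and that of Samd8 were not past the threshold in KO against WT under either treatment.

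Of the 9 neighbours called by the brightest probe set in KO or GS against WT, 8 were named for their mean KO and GS difference. Of these, Cfap20dc, next to Fhit, was above WT in KO by 0.79 ± 0.16 with PBS and 0.83 ± 0.16 with T3. Il3ra, a cytokine receptor subunit beside Psmd6, was above it by 0.52 ± 0.11 in both, and Thoc7, of the mRNA export complex THO, by 0.37 ± 0.09 and 0.34 ± 0.09. In GS none of the 3 was past the threshold, and the largest difference from WT was that of Cfap20dc with PBS (0.31 ± 0.16). Pdhb, a subunit of pyruvate dehydrogenase, was above WT in KO with PBS (0.45 ± 0.10) and below it with T3 (-0.59 ± 0.10), and in GS below it with T3 (-0.65 ± 0.10). Pxk (0.28 ± 0.07) and Kctd6 (0.35 ± 0.10) were past the threshold in KO with PBS, Mss51 in KO with T3 (0.38 ± 0.09) and Ap3m1 in GS with T3 (-0.41 ± 0.11). The ninth, Abhd6, a lipid hydrolase 25 places before Thrb, has differences of opposite sign that cancel in that mean: it was above WT in GS with PBS (0.73 ± 0.13) and below WT in KO with T3 (-0.78 ± 0.13, and -1.25 ± 0.17 in a second probe set).

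**Figure D3:**
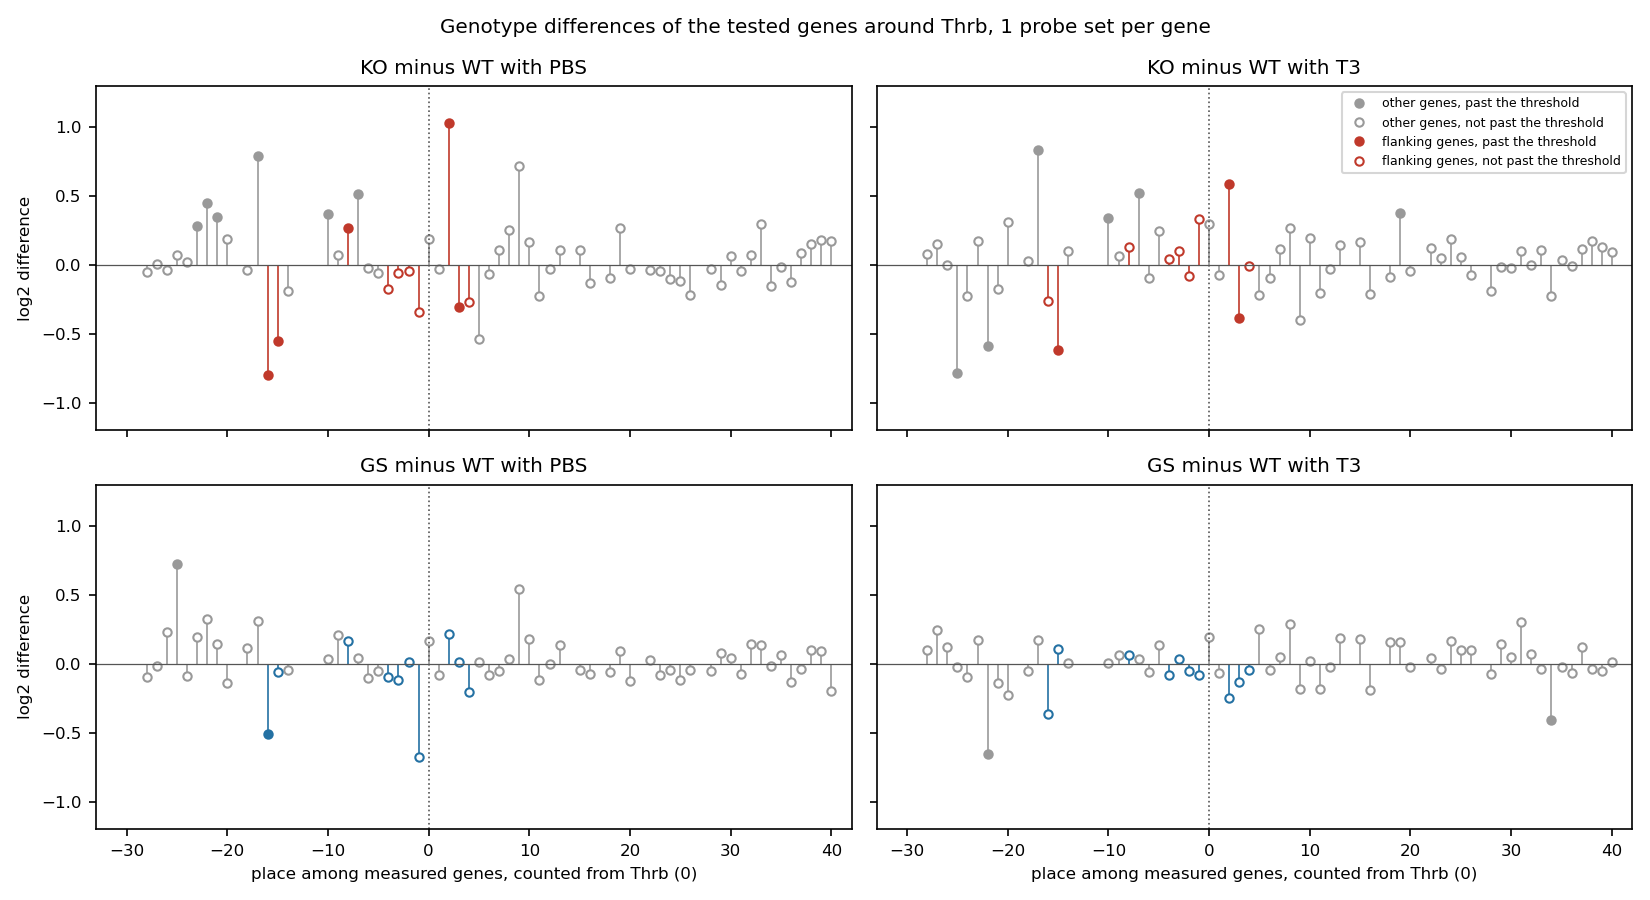
Log2 difference from WT (y axis) of each tested gene by its place among measured genes, counted from Thrb at 0 (x axis), for KO (upper row) and GS (lower row) with PBS and T3, 1 probe set per gene. Coloured points are the 10 flanking genes, grey points other genes, and filled points are past the threshold. In KO with PBS every filled point lies between Pxk, far to the left, and Ube2e1, 3 places after Thrb.

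The comparison of GS with KO, which leaves WT out, had few calls over the whole array, 23 probe sets with PBS and 24 with T3. Probe sets of the 10 flanking genes made up 4 and 5 of these, where 18 of the 24577 tested (0.0732%) were theirs. All genes within 40 places, with the flanking genes and Thrb included, made up 5 and 10, where 111 (0.452%) were theirs. Outside the flanking genes that left 1 and 5. As the choice of genes used genotype differences, nothing is read from these shares. Those of the flanking genes were Ptprg 1429691_at, Oxsm 1429699_at and 1449685_s_at and Nkiras1 under both treatments, and Ptprg 1434360_s_at with T3 (0.72 ± 0.12), a call lost without GS replicate 1 (0.64), GS replicate 3 (0.76) or KO replicate 1 (0.59). The others, named after their values were seen, included a probe set of Dnase1l3, a secreted deoxyribonuclease, at 1.14 ± 0.13 with PBS and 1.09 ± 0.13 with T3. With T3 they were also 2 probe sets of Abhd6 (0.76 ± 0.13 and 1.00 ± 0.17), Acox2 (-0.53 ± 0.10) and a probe set of Cfap20dc (-0.68 ± 0.12). The brightest probe set of Dnase1l3 was not past the threshold with PBS, nor was that of Cfap20dc with T3 (-0.66 ± 0.16).

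Whether T3 acted on the flanking genes is a contrast the choice of genes did not use, and it was tested with limma. It shares its arrays with the genotype differences, so it is not independent of that choice. Nkiras1 rose with T3 in WT, by 0.46 ± 0.09 (adjusted p = 0.00144, higher in 3 of 3 arrays than in every PBS array), and in Y147F, by 0.38 ± 0.09 (adjusted p = 0.00794). It was 1 of 10 flanking genes called in each, where 10.6% of all genes were called in WT and 11.6% in Y147F. In KO the Nkiras1 difference was 0.02 ± 0.09 (adjusted p = 0.969) and in GS 0.00 ± 0.09 (adjusted p = 0.999), and none of the 10 genes was called in either, where 0.177% and 0.148% of all genes were. Without Y147F PBS replicate 3 the Nkiras1 rise in Y147F was 0.34 (adjusted p = 0.0407).

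The T3 response of a mutant minus that of WT equals the genotype difference with T3 minus that with PBS. The choice of genes used such differences, so these values too are a description, without p-values. In limma none of the 10 genes was past the threshold. For Nkiras1 the response in KO minus that in WT was -0.44 ± 0.13. The response in GS minus that in WT was -0.46 ± 0.13, and neither was past the threshold. In Y147F it differed from WT by -0.08 ± 0.13. Over all genes 3.09% had a response in KO that differed from WT, 2.92% in GS and 0% in Y147F. At an unadjusted p under 0.05 the count among the 10 genes was 3 for KO, 1 for GS and 0 for Y147F. The share of all genes at that unadjusted p was not counted, so nothing is read from this count.

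The other 9 genes had no T3 difference past the threshold in any genotype. Rarb had the largest of them, at 0.58 ± 0.21 in KO (adjusted p = 0.333), 0.50 ± 0.21 in GS (adjusted p = 0.676), -0.49 ± 0.21 in Y147F (adjusted p = 0.151) and -0.10 ± 0.21 in WT. Fhit had 0.37 ± 0.13 in KO (adjusted p = 0.317) and Oxsm, by its brightest probe set, 0.23 ± 0.08 in KO (adjusted p = 0.274). The remaining differences of these genes lay between -0.22 and 0.17.

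**Figure D4:**
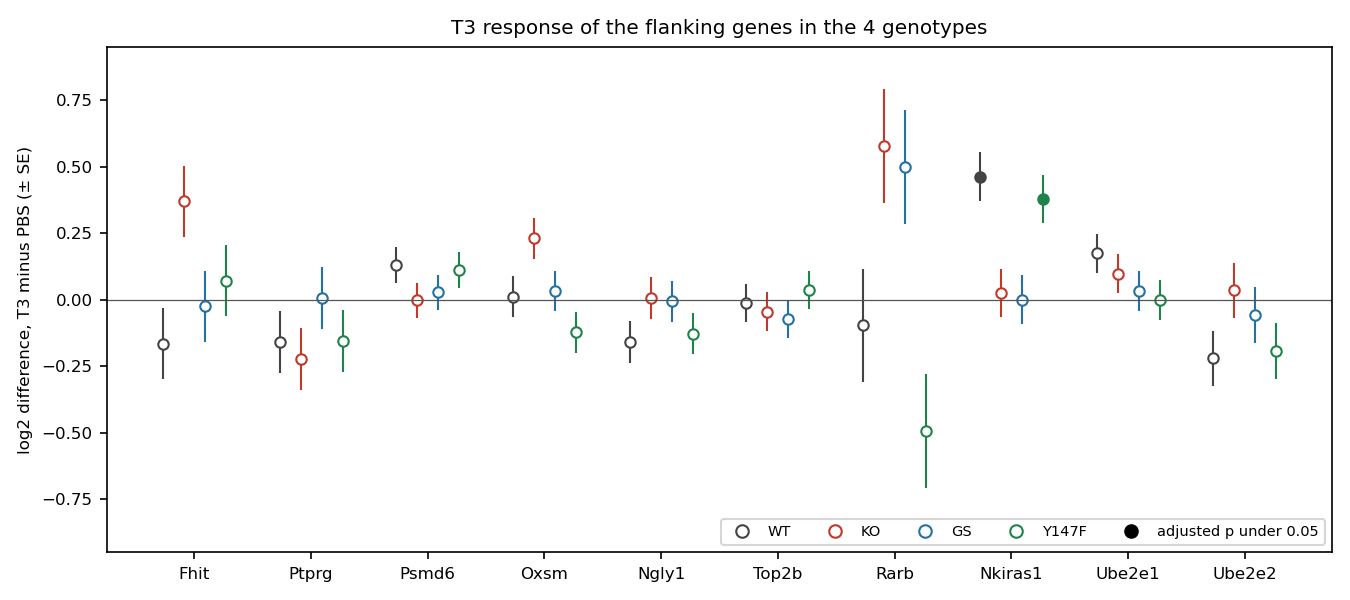
Log2 difference of T3 minus PBS (y axis, ± SE) of the 10 flanking genes (x axis, in gene order) in WT, KO, GS and Y147F, by the brightest probe set of each gene, with 3 arrays per group. Filled points have a limma adjusted p under 0.05, which are those of Nkiras1 in WT (0.46) and Y147F (0.38).

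Genes listed as relatives or partners of the flanking genes, or as hepatic T3 targets, differed from list to list in how many were past the threshold. Among 7 tested E2 enzymes and partners, Ube2e3, a close relative of Ube2e1, fell with T3 in WT (-0.24 ± 0.07, adjusted p = 0.0265) and Trim32, a ubiquitin ligase, was above WT in GS with T3 (0.34 ± 0.10). None of 16 other subunits of the proteasome's regulatory particle, none of 7 genes of mitochondrial fatty acid synthesis and lipoylation and none of 5 genes of NF-κB inhibition was past the threshold in any of the 15 contrasts. The smallest p in these lists belonged to Psmc6 (-0.21 ± 0.07, Y147F against WT with PBS) and Psmd2 (0.22 ± 0.08, KO against WT with PBS), to Lipt1 (-0.28 ± 0.09, KO against WT with PBS) and Mecr (0.26 ± 0.09, KO against WT with T3), and to Nfkbia (-0.45 ± 0.11, T3 against PBS in KO) and Nfkbib (0.25 ± 0.07, GS against WT with PBS). None of these was past the threshold.

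Of 7 genes around Ngly1, Rad23b, which carries ubiquitinated proteins to the proteasome, fell with T3 in WT (-0.53 ± 0.14, adjusted p = 0.0170), and Nfe2l1 was 0.27 ± 0.09 above WT in KO with T3, not past the threshold. Of 7 topoisomerases and their repair enzymes, Top1mt, the mitochondrial one, fell with T3 in Y147F (-0.29 ± 0.06, adjusted p = 0.00545) and Tdp2 was below WT in KO with PBS (-0.38 ± 0.09). Of 11 tested genes of retinoic acid signalling, 3 rose and 2 fell with T3 in WT, beside 10.6% of all genes called, and 1 rose and 2 fell in Y147F, beside 11.6%. In KO and in GS against WT with T3, 1 of the 11 was higher and 2 were lower, beside 6.93% and 5.59%, and in KO with PBS 1 was lower. Among those that rose with T3 in WT was Rxrb, a partner receptor (0.37 ± 0.08, adjusted p = 0.00301). The T3 response of Rxrg was higher in KO than in WT by 0.87 ± 0.19, past the threshold. Of 3 tested receptor phosphatases and ligands, 1 was above WT in KO with PBS, beside 6.87% of all genes, and Ptprf was above WT in GS with PBS (0.44 ± 0.09), beside 2.95%, and Ptprk differed by -0.31 ± 0.11 with T3 in WT (adjusted p = 0.0638). Of 5 genes listed with Fhit, Hint3 (-0.48 ± 0.10) and Nit1 (-0.28 ± 0.06) were below WT in KO with PBS, beside 6.87% of all genes. By contrast 8 of 10 thyroid hormone receptors and hepatic T3 targets rose with T3 in WT, and in Y147F 7 rose and 1 fell, with Dio1, the deiodinase, up by 7.52 ± 0.28 (adjusted p = 3.93e-13) and Bcl3, an NF-κB cofactor, by 3.24 ± 0.17 (adjusted p = 4.73e-11) in Y147F.

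Over the 24 arrays, the genes whose levels ran most like the 3 flanking genes with the widest group means were, by Pearson's r, Akap7 (0.749), Rfesd (0.735) and Mettl21a (0.727) for Rarb. For Nkiras1 they were Ttc39a (0.856), Wdr70 (0.844) and Gm2788 (0.822), and for Ptprg, by its brightest probe set, Fam219b (0.830), Alg9 (0.826) and Dixdc1 (0.806). These arrays share genotype and treatment groups, so the values describe likeness over the groups as well as within them.

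Markers of liver cell types were measured beside these results. In KO against WT with PBS, 0 of 5 hepatocyte, 0 of 10 sinusoidal endothelial, 0 of 4 cholangiocyte and 0 of 4 lymphocyte and neutrophil markers were past the threshold, while 1 of 10 Kupffer cell markers was higher and 1 of 12 stellate cell markers was lower. The log2 of the summed intensity of the hepatocyte markers ran from 16.97 to 16.99 in WT and from 16.96 to 17.00 in KO. That of the Kupffer cell markers ran from 12.77 to 12.96 in WT and 12.96 to 13.17 in KO, and that of the stellate cell markers from 13.40 to 13.60 and 13.46 to 13.71. That of the endothelial markers ran from 13.07 to 13.16 in WT and 12.94 to 13.01 in KO. With T3, 1 of 5 hepatocyte markers was higher in KO and 1 in GS than in WT, and 1 of 10 Kupffer cell markers was higher in GS, where the median difference of that list was 0.47. In GS with PBS 1 of 12 stellate cell markers was lower. The summed level of that list ran from 13.28 to 13.40, against 13.40 to 13.60 in WT. Its median difference from WT with PBS was -0.14 in GS and 0.25 in KO. Among the cholangiocyte markers Cftr was below the 25th percentile on every array. The part of cell makeup in the differences of the flanking genes was not tested.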

How the data were processed

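The authors summarised the arrays with RMA, per the submitters' processing notes, with no version named there. The 18 columns of WT, KO and GS were deposited as log2 intensities. The 6 deposited Y147F columns are entered as a score, because nearly every value had lost its decimal mark. It was restored so that each value fell between 3 and 16. Set missing were 781 cells (0.289% of these columns) that could be spreadsheet day numbers or gave no value in that range. None of them was in a probe set of the 10 genes. Applied to intact columns stripped of their marks, this restoration gave back every value it restored. A probe table gave 1 symbol for 34958 of 45101 probe sets.

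Linear models holding a mean for each of the 8 groups were fitted with limma 3.58.1 in R 4.3.3, once with the brightest probe set per gene (14161 genes) and once with every probe set (24577), keeping those at or above the 40th percentile of their array in at least 3 arrays. Moderation was empirical Bayes, with 16 residual and 4.28 prior degrees of freedom, tests were two-sided, and p-values were adjusted by Benjamini and Hochberg over a contrast. The fit was tested on simulated data. Labels do not say whether arrays of a group are separate litters or days, so p-values measure only the spread between these arrays.

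Named were all 10 genes with each probe set, Thrb, up to 8 called neighbours with the largest mean KO and GS difference, 2 genes with the smallest p per partner list, and 3 genes by correlation for each of the 3 genes with the widest group means. The 10 genes, the lists, the tests and the alternatives were chosen with earlier results of these data known, and the alternatives for single probe sets after seeing the values here.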

Additional observations from a re-analysis of the deposited data

How the results depend on the processing

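No paired analysis was possible because the labels give no replicate number that groups share. Of the values of the flanking genes past the threshold, 14 in all, 187 of 209 alternative values kept direction and side, 21 lost the threshold and 1 reversed. Reversed were Psmd6 in KO against WT with PBS (-0.075 with the mean of probe sets) and, not past the threshold before, Oxsm with the mean of probe sets in KO against WT with T3 (-0.42) and GS against KO with T3 (0.45), by construction, since its probe sets differ. Ptprg, Nkiras1 and Fhit in KO against WT with PBS kept theirs in 15 of 15 alternatives, and Ube2e1 in 10. Of 23 single probe set values past it, 214 of 230 alternative values kept it, Ptprg 1429691_at and Oxsm 1429699_at and 1449685_s_at in all.

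The count of flanking genes past the threshold in KO against WT with PBS, 5, was 3 with only the arrays compared and 3 without KO PBS replicate 3, and 3 to 5 over the leave-outs. In GS against WT with PBS, 1 became 0 with every probe set tested, 2 with only the arrays compared and 0 to 0 over the leave-outs. In GS against KO with PBS, 1 became 2 with array weights, 2 with title numbers as a covariate, and 3 with every probe set tested and 3 with their mean. In GS against KO with T3, 2 became 0 with only the arrays compared and 1 to 2 over the leave-outs, at 1 without GS T3 replicate 1, GS T3 replicate 3 or KO T3 replicate 1. T3 in Y147F gave 2 with array weights. The T3 response in GS against WT, 0, gave 1 (Nkiras1) with the 60th percentile filter, array weights, the mean of probe sets, only the arrays compared, quantile normalisation, a variance trend, and without WT PBS replicate 3 (0 to 1). That of KO gave 1 (Nkiras1) with array weights and without KO PBS replicate 1 or KO T3 replicate 1 (0 to 1). The cause was not tested.

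Over all genes, counts fell in the fit of only the arrays compared: KO against WT 973 to 382 with PBS and 981 to 647 with T3, GS against WT with PBS 418 to 211, and T3 in Y147F 1644 to 864, in KO 25 to 6 and in GS 21 to 2. Leaving out 1 array lowered them by over 1.5 times in KO against WT with PBS without WT replicate 2 or KO replicate 2 or 3 (523 to 642), with T3 without WT replicate 2 or 3 or KO replicate 2 (603 to 641), in GS against WT with PBS without any array but WT replicate 3 (235 to 274) and with T3 without any of the 6 arrays (792 to between 383 and 526). T3 in Y147F fell to 1086 without T3 replicate 1, T3 in KO to 16 without T3 replicate 1, and T3 in GS to 10 to 13 without T3 or PBS replicate 2 or 3. Array weights raised GS against WT with PBS to 671, Y147F against WT with T3 from 1 to 93 and T3 in GS to 33, and title numbers as a covariate lowered KO against WT with T3 to 439. Counts of GS against KO ranged from 3 to 45 with PBS (12) and 0 to 30 with T3 (15), and those of Y147F against WT with PBS from 0 to 33 (12). Arrays per group limit all of these.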
